A study of Homo sapiens with 17 samples.

Results

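The genes described here are 10 modulators of Notch signalling: the feedback regulators NRARP and DTX1, the adaptor NUMB, the fringe enzymes LFNG, MFNG and RFNG, the mastermind coactivators MAML1, MAML2 and MAML3, and the DNA-binding protein RBPJ. They were taken by name, and every probe set annotated to them was used, which gave 21 of the 54675 probe sets and 10 of the 19775 genes on the array. RNA came from the human neuroblastoma line IMR32, which carries extra copies of MYCN, engineered so that doxycycline switches on the intracellular domain of NOTCH3 (NOTCH3IC), the active part of that receptor. Clones c6 and c8 were each followed from time 0 (9 arrays to time 120 for c6, 8 arrays to time 96 for c8), with 1 array per clone and time. All arrays carry the construct, each clone is a single line, and none of the 17 arrays comes from cells kept without doxycycline after time 0. Time in culture, doxycycline and NOTCH3IC therefore cannot be told apart. The labels print the times without a unit.

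When a Notch receptor is cleaved, its intracellular domain enters the nucleus, binds RBPJ on DNA and recruits a mastermind protein, which brings in histone acetyltransferases and starts transcription. Fringe enzymes act earlier, in the Golgi, where they lengthen O-fucose sugars on the receptor and so change which ligands it answers to. NRARP, a Notch target itself, binds the nuclear complex and promotes loss of the intracellular domain, while DTX1, a ubiquitin ligase, and NUMB, an endocytic adaptor best known as a Notch antagonist in neural precursors, act on the receptor's trafficking.

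Promoter windows are shown because they place the letters bound by RBPJ beside members called over the time course and members not called. RefSeq (GRCh38.p14) gave windows of 250 bases before to 50 bases after a transcript start for 8 of the 10 genes, 13 windows in all. DTX1 and MFNG are not in that table. TGGGAA, the core of the RBPJ site, and its longer form GTGGGAA, which contains it, were searched on both strands, and matches are in capitals. Over all 35116 windows of 300 bases in the table, 24.0% held TGGGAA and 6.25% held GTGGGAA. Among the 13 windows of these genes, 3 held TGGGAA and 1 held GTGGGAA. Both LFNG windows held 1 TGGGAA, its first base 5 bases before the start in the first and 248 bases before it in the second. Of the 5 RBPJ windows, 1 held GTGGGAA, on both strands, 73 and 115 bases before the start. The other 4 RBPJ windows and the single windows of NRARP, MAML1, MAML2, MAML3, NUMB and RFNG held neither. Printed are the 3 windows with a match and, of those without, the windows of NRARP and MAML2, whose RNA rose. A match is a run of letters and not a measured binding site.
LFNG chr7:2512279-2512578 (plus strand): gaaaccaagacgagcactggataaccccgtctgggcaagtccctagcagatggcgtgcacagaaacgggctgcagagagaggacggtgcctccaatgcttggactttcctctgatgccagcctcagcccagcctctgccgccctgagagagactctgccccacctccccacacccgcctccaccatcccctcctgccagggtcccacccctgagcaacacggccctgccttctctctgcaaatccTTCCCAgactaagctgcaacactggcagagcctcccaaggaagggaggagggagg
LFNG chr7:2517613-2517912 (plus strand): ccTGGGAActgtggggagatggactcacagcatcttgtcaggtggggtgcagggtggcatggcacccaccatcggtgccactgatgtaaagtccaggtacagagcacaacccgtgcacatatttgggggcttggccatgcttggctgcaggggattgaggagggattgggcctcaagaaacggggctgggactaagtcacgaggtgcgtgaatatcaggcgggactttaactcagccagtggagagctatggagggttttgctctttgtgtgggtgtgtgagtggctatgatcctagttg
RBPJ chr4:26319496-26319795 (plus strand): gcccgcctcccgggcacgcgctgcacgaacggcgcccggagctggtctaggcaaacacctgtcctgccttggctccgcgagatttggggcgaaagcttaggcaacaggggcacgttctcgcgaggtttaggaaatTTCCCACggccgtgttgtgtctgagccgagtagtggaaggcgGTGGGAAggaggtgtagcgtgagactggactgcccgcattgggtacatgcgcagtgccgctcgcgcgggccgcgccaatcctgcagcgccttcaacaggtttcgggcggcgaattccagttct
NRARP chr9:137302222-137302521 (minus strand): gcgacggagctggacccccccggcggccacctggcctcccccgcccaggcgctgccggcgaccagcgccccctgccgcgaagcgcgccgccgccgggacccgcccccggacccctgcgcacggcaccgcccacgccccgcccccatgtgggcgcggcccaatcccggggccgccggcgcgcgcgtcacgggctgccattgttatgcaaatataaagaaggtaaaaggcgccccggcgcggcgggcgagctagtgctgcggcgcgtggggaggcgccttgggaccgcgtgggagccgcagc
MAML2 chr11:96343146-96343445 (minus strand): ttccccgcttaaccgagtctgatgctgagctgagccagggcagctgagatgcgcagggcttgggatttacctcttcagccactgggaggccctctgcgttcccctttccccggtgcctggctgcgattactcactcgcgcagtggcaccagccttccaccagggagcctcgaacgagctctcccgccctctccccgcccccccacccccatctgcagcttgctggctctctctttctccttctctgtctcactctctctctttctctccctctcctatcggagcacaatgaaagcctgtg

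As the check of the induction, the brighter NOTCH3 probe set read 94.6, 75.2 and 445.7 at times 0, 4 and 24 for c6. For c8 it read 218.3, 274.7 and 1027.7. Its rise was thus seen by time 24 in both clones, but not at time 4 in c6. The sources used here do not say whether this probe set reads the transgene, the cell's own transcript or both. Of the 12 neuroblast markers listed, 10 had a probe set and 9 passed the intensity filter; TH, the rate-limiting enzyme of catecholamine synthesis, did not exceed 8.5. The brightest were GATA3 (3044.8 to 4289.9), CHGA (732.7 to 2082.4) and PHOX2A (582.8 to 1598.4), and no other exceeded 385.9, so their sum rests mainly on these. The summed neuroblast signal was 7447.2 to 8156.2 at time 0 and 5488.6 to 6484.0 at times 48 to 96. Over the same arrays the sum of 8 fibroblast or stromal markers went from 314.2 to 486.9 up to 4271.9 to 8028.3, led by COL3A1, whereas COL1A2 stayed at or below 19.0. Sums for endothelial, Schwann cell and blood markers were at most 68.5, 44.6 and 30.9 on any array, and 2 of 5, 1 of 5 and 1 of 4 listed genes past the filter. Those were PECAM1 (17.5 to 39.8) and KDR (2.8 to 19.2), ERBB3 (4.2 to 32.6), and CD3E (1.5 to 20.3). Of those not past it, CDH5, VWF, SOX10 and PTPRC reached 15.3, 15.4, 15.1 and 12.7. TEK, S100B and CD14 were never above 6.9. The part of these shifts in the results was not tested. In bulk RNA, fewer cells of a type and less RNA per cell cannot be told apart.

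Each value below is a scaled array intensity on a linear scale, and each change is a log2 difference of (intensity + 16) ± its standard error from limma. Times 4, 8 and 12 are called early, times 48, 72 and 96 late, and time 0 the start. Of the 21 probe sets, 18 reached the filter, a mean log2 value in the upper 60% of all probe sets, and were tested among 32805. Where a gene has several probe sets they are lettered a, b, c and d from the brightest to the dimmest. The 3 left untested were LFNG b, MFNG c and MAML3 c. The filter stood at a mean log2 value of 4.68. MAML3 b lay just inside at 4.68, and MAML3 c and LFNG b just outside at 4.67 and 4.66.

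Transcripts of 5 of the 10 genes changed over the time course: NRARP, DTX1, LFNG, MFNG (both tested probe sets) and MAML2. These are 6 of the 18 tested probe sets (limma adjusted p under 0.05 over all times), beside 4.51% of all those tested. Early against start, 3 of 18 were called, all higher, beside 1.33% of all tested (0.887% higher and 0.442% lower). Late against start, 5 of 18 were called, 3 higher and 2 lower, beside 4.74% (3.64% higher and 1.10% lower). The median change of the 18 was 0.038 early and 0.034 late on the log2 scale, beside 0.012 and -0.00074 for all probe sets. Both comparisons share the 2 time-0 arrays, so they are not independent. The plot of log2 changes sets the early and late values side by side.

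**Figure D1:**
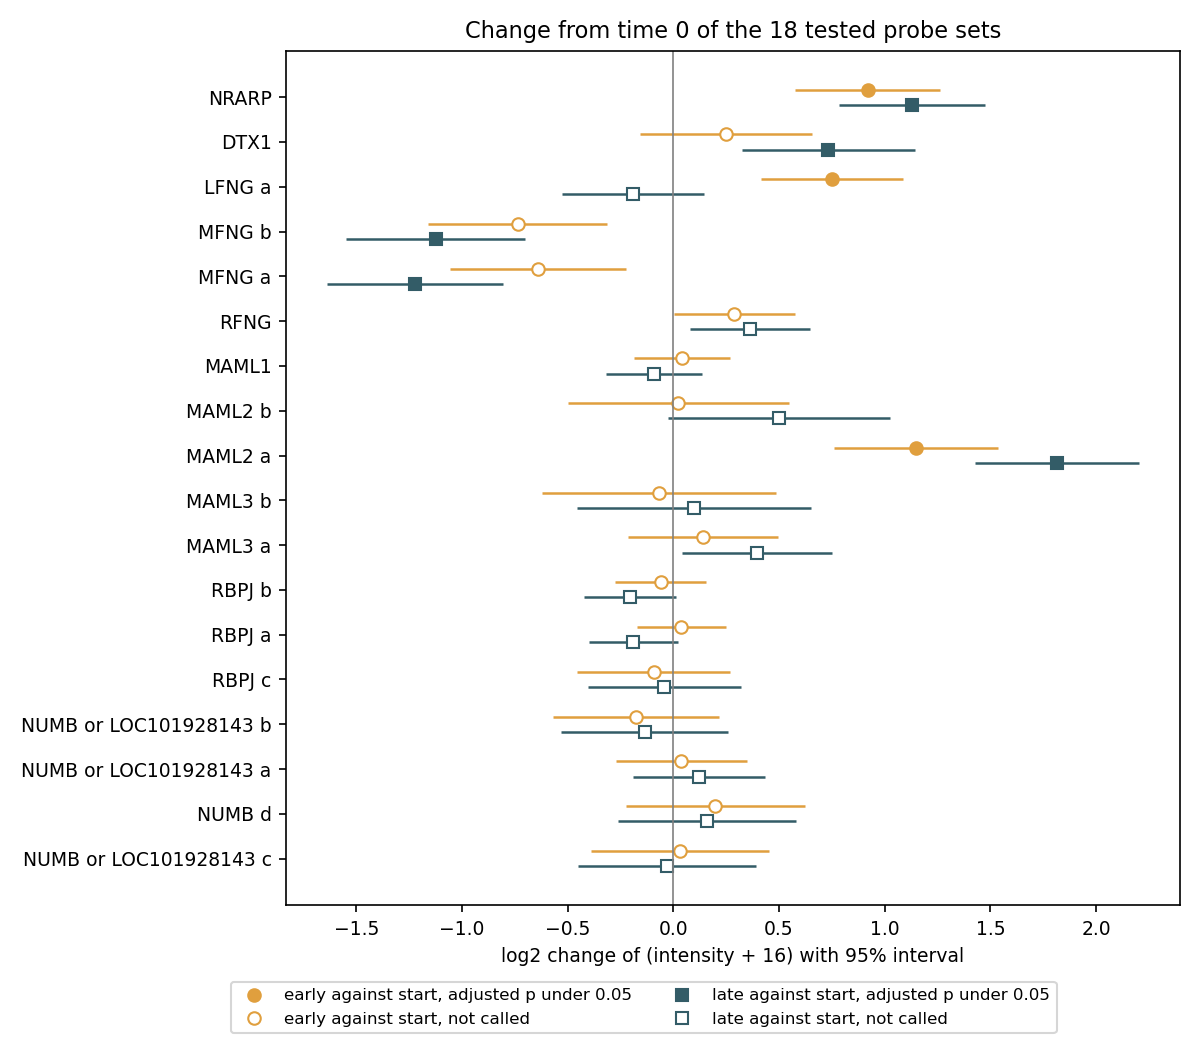
Change of the 18 tested probe sets from time 0, as the log2 difference of (intensity + 16) with its 95% interval (horizontal axis), early (circles) and late (squares); filled symbols passed an adjusted p of 0.05. NRARP and MAML2 a were called higher in both phases, LFNG early, DTX1 late, and the MFNG probe sets were called lower late.

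NRARP, the feedback inhibitor, rose in both phases. In clone c6 its intensity was 58.0 at time 0, 127.5 at time 4, 132.8 at time 8 and 243.1 at time 12, and lay between 163.2 and 227.2 afterwards. In clone c8 it was 97.9, 128.9, 125.7 and 226.0 at those times, and 143.5 to 208.8 afterwards. All 6 early and all 6 late arrays were above their own time 0, a one-sided pattern that 19.4% of all probe sets tested showed early and 25.6% late, in either direction. Both clones peaked at time 12, at 4.19 times their own time 0 in c6 and 2.31 times in c8. The log2 change was 0.92 ± 0.16 early (limma adjusted p = 0.00837) and 1.13 ± 0.16 late (adjusted p = 0.000291). Late minus early was 0.21 ± 0.16 (adjusted p = 0.664), a difference within the spread of the arrays. The early call was lost without 1 array, time 0 of c6, which gave 0.56, while the late call held without any single array (adjusted p at most 0.0479). In 13 other settings the early call was kept in 10 and lost with phase means and in c6 or c8 alone. The late call was kept in 12 of them and lost in c8 alone.

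DTX1, the Deltex ubiquitin ligase, was called higher late. Clone c6 read 54.2 at time 0, 50.1, 78.3 and 64.5 at times 4, 8 and 12, 134.1 at time 24, 169.1 at time 48, and 94.6, 83.5 and 98.4 at times 72, 96 and 120. Clone c8 read 57.2 at time 0, then 55.7, 65.8, 113.9, 127.4, 98.9, 91.0 and 98.8 up to time 96. At time 4 both clones were thus slightly below their start, and all 6 late arrays were above it. In 25.6% of all probe sets tested the 6 late arrays lay on 1 side of their start. The change was 0.25 ± 0.19 early (adjusted p = 0.681) and 0.73 ± 0.19 late (limma adjusted p = 0.0356). Neither the late call of DTX1 nor its call over all times was stable. The late call was lost without the time-0 array of c6 (adjusted p = 0.371) or c8 (0.262), without time 48, 72 or 96 of c6 (0.0698, 0.0619 and 0.0538), without time 72 or 96 of c8 (0.0567 and 0.0810), and in 8 of 13 other settings. These were median centring (0.0958), quantile normalization (0.0616), no filter (0.0883), no trend (0.0662), no clone block (0.0853), phase means (0.0918), and c6 or c8 alone (0.358 and 0.583). The F test over all times (adjusted p = 0.0464) was kept in 4 of the 17 fits without 1 array, those without time 12 or 120 of c6 and time 12 or 48 of c8, and reached 0.151 in the others. It was kept in 2 of 10 other settings, a stricter filter and the brightest probe set per gene, and reached 0.161 in the rest. Late minus early was 0.49 ± 0.17 (adjusted p = 0.167), and 0.62 without time 12 of c8 (adjusted p = 0.0159).

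NUMB had 1 probe set annotated to it alone, NUMB d, which was dim, at 8.7 to 23.2, and did not pass in any comparison (late against start 0.16 ± 0.20, adjusted p = 0.793). The other 3 are annotated to both NUMB and LOC101928143, so their signal cannot be assigned to either. The brightest of them, NUMB a, read 53.3 to 104.3 in clone c6 and 76.9 to 121.1 in clone c8, with a late change of 0.12 ± 0.15 (adjusted p = 0.782). NUMB b (25.1 to 62.0) and NUMB c (10.2 to 25.5) were not called either, and none of the 4 had a 95% interval beyond 0.62 in size for the early or the late change, or a late against early change over 0.084.

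The fringe genes differed in course. LFNG, lunatic fringe, was highest at time 8 in both clones and then returned. The intensity of LFNG a in clone c6 was 68.4 at time 0, 103.2, 140.2 and 116.0 at times 4, 8 and 12, 58.9 at time 24, and 60.1, 46.5, 45.6 and 53.6 from time 48 to 120. In clone c8 it was 68.1 at time 0, 141.5, 162.7 and 101.3 early, 82.4 at time 24, and 62.4, 57.7 and 80.3 late. The lowest early array (101.3) stood above the highest late array (80.3), so the phases did not overlap. LFNG was the only 1 of the 18 whose 6 late and 6 early arrays separated (1.64% of all probe sets tested) and the only 1 called late against early (3.35% of all tested, 2.53% higher and 0.820% lower). It fell by 0.94 ± 0.12 on the log2 scale between these phases (limma adjusted p = 0.000176), and the call held without each of the 12 arrays in turn, with an adjusted p of at most 0.000959. In c8 alone the difference was -0.86 (adjusted p = 0.0587). Against start the change was 0.75 ± 0.16 early (adjusted p = 0.0265) and -0.19 ± 0.16 late (adjusted p = 0.653). The early call was lost without the time-0 array of c6 (adjusted p = 0.217) or c8 (0.40), without time 8 of c6 (0.0529), and without time 4 or 8 of c8 (0.0698 and 0.0598). It was kept in 5 of 13 other settings and lost with median centring (0.0698), no filter (0.0696), probe sets averaged by gene (0.164), no trend (0.0558), no clone block (0.167), phase means (0.0596), and c6 or c8 alone (0.587 and 0.620). LFNG b was too dim to test (2.8 to 21.9), and its highest values lay at time 8 in c6 and time 4 in c8.

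The time of the LFNG maximum was also the time at which the summed intensity of 8 cell division genes was highest in each clone, 10673.7 in c6 and 8547.5 in c8, from 7037.5 and 6519.2 at time 0. Those sums were 5429.1 to 7971.2 over the late arrays. The part of cell division in the LFNG values was not tested.

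MFNG, manic fringe, fell. Probe set a read 89.0, 66.3, 77.4, 33.1, 57.5, 44.3, 30.6, 18.6 and 22.1 in clone c6 from time 0 to 120. In clone c8 it read 202.8, 126.1, 129.2, 92.9, 83.7, 60, 109.1 and 65.0 from time 0 to 96. Time 0 was the highest point in each clone, and no later array reached it. Probe set b gave the same order for the start, with 45.7 at time 0 and 9.8 to 11.8 late in c6, and 119.2 and 44.8 to 54.6 in c8. In c6 it ended at 1.7 at time 120, a level too low to give a fold. The late changes were -1.22 ± 0.20 (limma adjusted p = 0.000836) and -1.12 ± 0.20 (adjusted p = 0.00219). Early changes of -0.64 ± 0.20 and -0.74 ± 0.20 did not pass (adjusted p = 0.152 and 0.0961). They had the same sign in 6 of 6 arrays, as did 19.4% of all probe sets tested, in either direction. For the 6 late arrays that share was 25.6%. For probe set b the early change was called without time 12 of c6 (-0.85, adjusted p = 0.0315). Without the time-0 array of clone c8 the late falls were -1.12 (adjusted p = 0.0544) and -1.02 (adjusted p = 0.102). Over all times, MFNG a was not called without time 0 of c8 (adjusted p = 0.0519), nor MFNG b without time 0 of c6 (0.0900) or c8 (0.108). Without the clone in the model, in which a block on the clone pairs the arrays of a time, the late falls did not pass (adjusted p = 0.244 and 0.359). Neither late fall passed in c6 or c8 alone. For probe set a, late against early was -0.58 ± 0.18 (adjusted p = 0.0980), and it was called without time 12 of c6 (adjusted p = 0.0324), time 12 of c8 (0.0433) or time 72 of c8 (0.0389). MFNG c read 1.7 to 21.9 and was not tested.

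RFNG, radical fringe, was not called in any comparison. It read 69.4 at time 0 and 71.0 to 114.5 later in clone c6, and 78.3 and 93.0 to 127.9 in clone c8. Every later array was above its own time 0 and both clones were highest at time 24, at 1.65 and 1.63 times the start. The changes were 0.29 ± 0.13 early and 0.36 ± 0.13 late (limma adjusted p = 0.397 and 0.176), and neither passed.

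**Figure D2:**
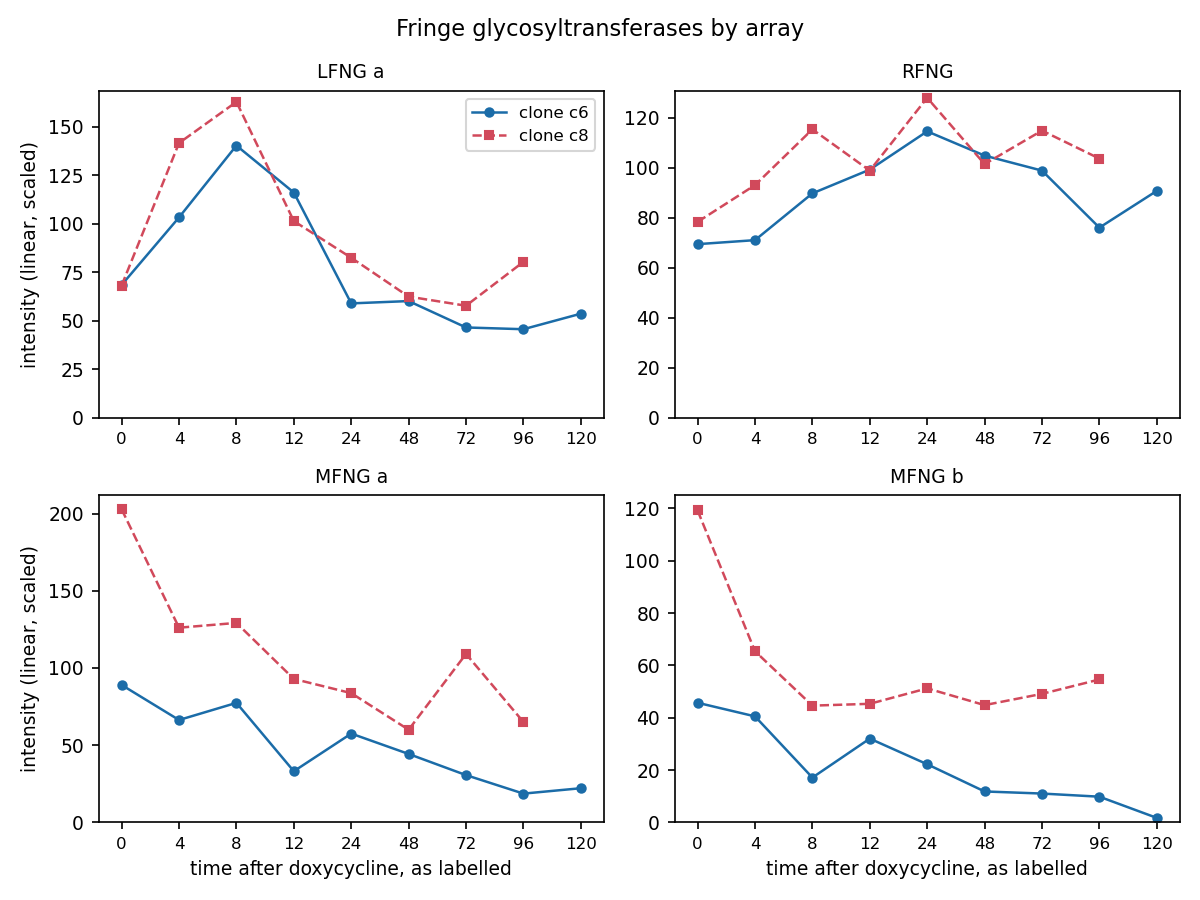
Scaled intensity of the fringe probe sets (vertical axes, linear, from 0) on each array against time as labelled (evenly spaced, no unit), in clone c6 (circles, solid) and clone c8 (squares, dashed). LFNG peaks at time 8 at 140.2 and 162.7, MFNG is highest at time 0 and higher in c8 throughout, and RFNG lies between 69.4 and 127.9.

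Of the mastermind genes, MAML2 had the largest rise among all members. Probe set a read 26.6 at time 0, 31.2, 52.8 and 116.3 at times 4, 8 and 12, and 122.9 to 150.3 from time 24 to 120 in clone c6. In clone c8 it read 16.4 at time 0, then 52.1, 55.6, 132.9, 126.0, 113.1, 74.1 and 114.8. The step between times 8 and 12 was present in both clones, and all 12 early and late arrays lay above their own time 0. Of all probe sets tested, 19.4% were on 1 side of time 0 early and 25.6% late. At its highest, at time 120, the raw intensity in c6 was 5.65 times the start. The start of c8 (16.4) lay below its array's median of 16.7, and no raw fold is given over it. On the log2 scale the change was 1.15 ± 0.18 early (limma adjusted p = 0.00390) and 1.81 ± 0.18 late (adjusted p = 9.58e-06). The late call held without any 1 array (adjusted p at most 0.00208), whereas the early call was lost without the time-0 array of c6 (1.32, adjusted p = 0.0504) or c8 (0.98, adjusted p = 0.180). In 13 other settings the early call was kept in 9 and lost with probe sets averaged by gene, phase means, and c6 or c8 alone. The late call was kept in 11 of them and lost in c6 or c8 alone. Late minus early was 0.67 ± 0.23 (adjusted p = 0.169), and 0.86 without time 12 of c8 (adjusted p = 0.0111). The dim probe set b was at most 29.3, with a change of 0.50 ± 0.25 late (adjusted p = 0.354), with 5 of 6 late arrays above their start.

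MAML3 a did not pass. In clone c6 it read 214.9 at time 0, 150.8, 195.6 and 252.0 early, 409.3 at time 24 and 242.9 to 335.6 afterwards, and in clone c8 163.8, then 164.2, 202.3, 330.1, 261.7, and 211.5 to 242.0 late. All 6 late arrays were above their start, by 0.40 ± 0.17 (limma adjusted p = 0.257), and 25.6% of all probe sets tested were 1-sided late. The F test over all times gave an adjusted p of 0.0678. That F test was called without time 12 of c6 (0.0168), time 12 of c8 (0.0411) or time 24 of c8 (0.0372). The highest array of each clone (time 24 in c6, time 12 in c8) was the 1 with the lowest cell division sum, 3336.2 and 4118.5, and the part of cell division in it was not tested. Its dim probe set b (1.0 to 27.4) was not called in any time comparison.

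MAML1 had a level that varied little, from 412.3 to 543.0 in clone c6 and from 381.1 to 481.3 in clone c8, with coefficients of variation of 8.44% and 7.90% over the arrays of a clone. Its late change was -0.09 ± 0.11, with a 95% interval from -0.32 to 0.14 (limma adjusted p = 0.775).

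RBPJ, through which the whole pathway reaches DNA, was not called in any comparison over time. Probe set a read 1276.4 and 1316.1 at time 0, 1195.9 to 1546.9 early and 1008.4 to 1224.1 late, and probe set b read 703.8 and 670.9, then 567.9 to 793.2 and 525.7 to 677.6. For both probe sets all 6 late arrays were below their own time 0. The late changes were -0.19 ± 0.10 (limma adjusted p = 0.397) and -0.21 ± 0.10 (adjusted p = 0.357), with 95% intervals from -0.40 to 0.02 and from -0.42 to 0.01. Late against early, probe set a had a difference of -0.23 ± 0.07 (adjusted p = 0.130), and passed without time 8 of c6 (-0.27, adjusted p = 0.0451). RBPJ c was dim, at 9.3 to 31.5.

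**Figure D3:**
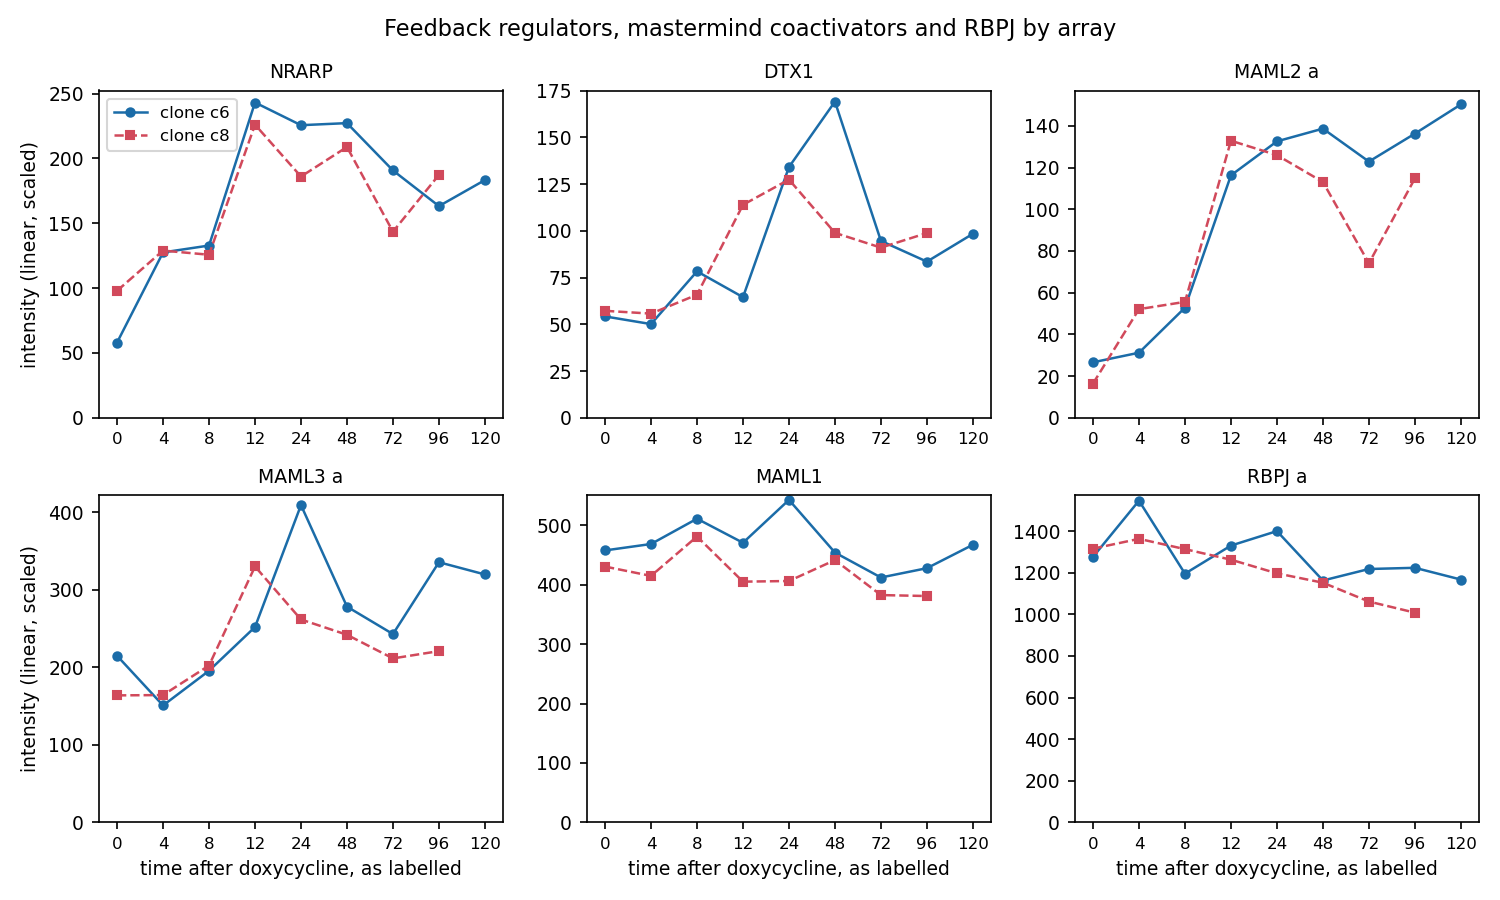
Scaled intensity (vertical axes, linear, from 0) of 6 probe sets on each array against time as labelled (evenly spaced, no unit), in clone c6 (circles, solid) and clone c8 (squares, dashed). NRARP and MAML2 step up between times 8 and 12, to 226.0 and 243.1 and to 116.3 and 132.9; MAML1 and RBPJ vary within 381.1 to 543.0 and 1008.4 to 1546.9.

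The other genes of the pathway were counted by gene, each by its brightest probe set, from a list of 56 of which 49 were tested. Over all times 11 were called (6.61% of all genes). Early against start 5 were higher and 1 lower (2.01%), late against start 9 were higher and 3 lower (6.94%), late against early 5 were higher and 2 lower (5.18%), and in clone level 13 were higher in c8 and 3 lower (21.7%). The early rises were 4 target repressors and 1 ligand, and late 2 of the 3 tested receptors, NOTCH3 (1.88 ± 0.19) among them, were higher too. HES1 (4.04 ± 0.33 early, 2.86 ± 0.33 late), HES4 (1.60 ± 0.17 and 2.39 ± 0.17), HEY1 (5.21 ± 0.27 and 5.53 ± 0.27), HEY2 (1.60 ± 0.30 and 3.13 ± 0.30) and the ligand JAG1 (3.61 ± 0.24 and 6.50 ± 0.24) rose in both phases, and HEYL late (2.46 ± 0.29). Of the repressors HES6 fell by 1.0 ± 0.19 late, and of the ligands DLL3 fell by 0.84 ± 0.18 early and, late, fell by 0.94 ± 0.18. Among 13 endocytic and ubiquitin regulators, DTX3L rose (0.69 ± 0.16) and NUMBL fell by 0.45 ± 0.12 late. None of the 10 tested nuclear cofactors that work with RBPJ and none of the 10 tested processing genes was called by limma early or late; at an unadjusted p under 0.05 these counts were 0 and 0 for the cofactors and 3 and 1 for the processing genes, beside 14.3% of all genes early and 18.3% late. Each of these genes kept its sign in every alternative run, but not every call held. The NUMBL call was kept in 16 of 23 settings and lost without the trend, without the clone block, and without time 0, 48 or 96 of c6 or time 0 or 96 of c8 (adjusted p up to 0.320). DTX3L was lost late without time 0 of c8 (0.350), HES6 without time 0 of c6 (0.0871) and NOTCH3 without the clone block (0.103). The call of the other receptor was lost with median centring, without the block and without either time-0 array (up to 0.230). DLL3 was lost early without the trend, the block, either time-0 array or time 8 of c8 (up to 0.298), and late without either time-0 array (up to 0.0943). HEY2 was lost early with a pseudocount of 64, without the block and without either time-0 array (up to 0.298). Between early and late, where LFNG fell, HES1 fell by 1.18 ± 0.20 and JAG1 rose by 2.90 ± 0.45. The ligand DLL1 fell by 0.61 ± 0.16 between these phases, a call kept in 10 of 18 settings (limma adjusted p up to 0.321). The call of NOTCH3 there was lost without the block (0.156), and those of HES1, HEY2, HEYL, JAG1 and DTX3L held in all 18.

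Between the clones, MFNG was called for level and not for response. At the 8 shared times c8 was above c6 each time in both tested MFNG probe sets. The ratio was 1.35 to 3.57 (median 2.09) for probe set a and 1.42 to 2.61 at times 0 to 24 for probe set b. For probe set a the ratio of 3.49 at time 96 is uncertain, as c6 read 18.6, just below its array's median of 18.7. At times 48, 72 and 96 probe set b read 11.8, 11.0 and 9.8 in c6, below the medians of those arrays (15.5, 17.5 and 18.7), against 44.8, 49.1 and 54.6 in c8, and no fold is given. The differences in level were 0.88 ± 0.12 (limma adjusted p = 0.000120) and 0.94 ± 0.12 (adjusted p = 7.69e-05). A difference of 1 sign at all 8 times was found in 12.4% of all probe sets tested, and 19.1% were called for level (9.33% higher in c8 and 9.72% lower), so 3 calls among 18 is near the background. The remaining call was the dim MAML3 b (-0.48 ± 0.16, adjusted p = 0.0480), which was lost in the fits without any 1 of times 0, 4, 24, 48, 72 or 96 (adjusted p up to 0.140). MAML1 was lower in c8 at all 8 times, by ratios of 0.748 to 0.972, and its difference of -0.16 ± 0.07 did not pass (adjusted p = 0.109). NUMB or LOC101928143 a was higher in c8 by 0.22 ± 0.09 (adjusted p = 0.106), and called without time 24 of either clone (0.27, adjusted p = 0.0435). NOTCH3 itself was higher in c8 at each shared time, by 1.21 ± 0.11 on the log2 scale.

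No member was called for a difference in response between the clones by limma's interaction of clone and phase (0 of 18). Response here is late minus early, without the time-0 arrays, so a clone difference in the change from start was not tested. At an unadjusted p under 0.05 there was 1 of 18, beside 2568 (7.83%) of all 32805, of which 0 passed adjustment. That 1 was MFNG b, at 17.1 to 40.5 early and 9.8 to 11.8 late in c6 and at 44.6 to 65.4 and 44.8 to 54.6 in c8 (c8 minus c6 0.70 ± 0.27, adjusted p = 0.603). For NRARP, LFNG and MAML2 the difference in response was -0.05 ± 0.34, 0.17 ± 0.25 and -0.62 ± 0.46, with 95% intervals from -0.77 to 0.66, from -0.37 to 0.70 and from -1.59 to 0.35. On the log2 scale, late NRARP lay 1.28 to 1.72 above its own time 0 in c6 and 0.49 to 0.98 in c8. For MAML2 a these values were 1.71 to 1.86 and 1.48 to 2.01, and for LFNG a -0.45 to -0.15 and -0.19 to 0.20. Each rests on 1 time-0 array per clone.

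**Figure D4:**
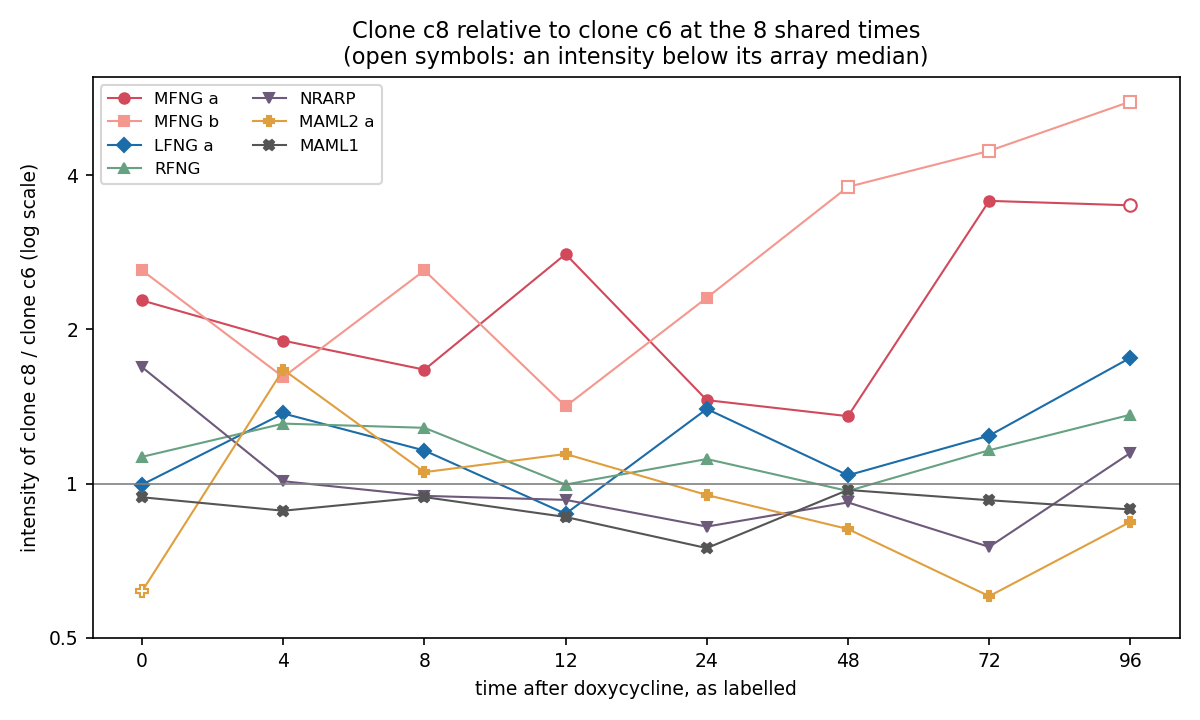
Ratio of the intensity of clone c8 to that of clone c6 (vertical axis, log scale) at each of the 8 shared times (horizontal axis, as labelled), for 7 probe sets. Open symbols mark ratios in which an intensity lay below its array's median, as for MFNG b from time 48 on and MFNG a at time 96. The size of these ratios is uncertain. Both MFNG probe sets lie above 1 at every time, and MAML1 lies between 0.748 and 0.972.

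As a description across the 17 arrays, after each clone's mean was removed, the brightest probe sets of NRARP and MAML2 had a Pearson r of 0.88, MAML2 and MAML3 0.82, DTX1 and MAML2 0.79, and MFNG and MAML2 -0.85. LFNG had an r of 0.42 with MFNG and -0.35 with MAML2. The arrays share the time course, so these values give likeness of shape and carry no p. Of the 13674 other genes, those most like each changed member were PAQR6 (0.95), IRS2 (0.90) and SAT1 (0.90) for NRARP; CHODL (0.94), THBS3 (0.94) and ADAM12 (0.93) for DTX1; and CCNY (0.93), LIMA1 (0.90) and PLAC1 (0.90) for LFNG. For MFNG they were HAND1 (0.95), PHOX2A (0.93) and TWIST1 (0.91), and for MAML2 NUP62CL (0.97), GULP1 (0.97) and EFNB2 (0.96). PHOX2A, a transcription factor of sympathetic neuroblasts, is also in the neuroblast marker sum given above.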

How the data were processed

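The deposited values are microarray intensities per probe set on a linear scale, from 17 Affymetrix arrays; per the submitters' processing notes MAS5 and GCOS were used, with no version given. The 2% trimmed mean of every array was 100.01, the scale set before deposit (array medians 14.6 to 19.3). Detection calls and scanner files were not used here, and the number of arrays limits the precision. The sources used here name no build for the probe annotation.

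Intensities became log2(value + 16), which understates changes of dim probe sets. Probe sets with a mean at or above the 40th percentile were tested with limma 3.58.1 in R 4.3.3 (lmFit, eBayes with a trend, Benjamini-Hochberg over all 32805, threshold 0.05). Change over time and changes from start came from 1 fit of 17 arrays with terms for time and clone (7 residual degrees of freedom). Late against early used 12 arrays and the clone (9), the clone response their interaction (8), and clone level the 16 arrays of shared times with time terms (7). The clone pairs arrays, as the labels name it; clone differences at shared times correlated between 0.162 and 0.449. Neighbouring times stand in as replicates of a phase, and nothing says that the times were separate cultures, so each p-value covers only how much these arrays vary.

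The members, lists and tests were chosen with earlier results of these data known. Every member probe set was accounted for, and likeness was ranked by Pearson r. NOTCH3 was named as the check of the induction, and the other pathway genes were counted from a listed set. Chosen after their values were seen were DTX3L, HES6, DLL1 and DLL3 and the marker genes singled out. The alternatives were other pseudocounts, scalings and filters, gene level values, no trend, no block, phase means, single clones, and each array left out. The tests were run on simulated data first.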

Additional observations from a re-analysis of the deposited data

Results flagged for a closer look

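Among 36 groups of 6 arrays (early or late, for each of the 18 tested probe sets), 4 held an array far from the others, where chance gives about 1 in 20. DTX1 read 169.1 at time 48 of clone c6, and the other late arrays read 83.5 to 98.9. RFNG read 76.0 at time 96 of clone c6, below the 98.8 to 114.8 of the other late arrays. MAML2 a read 74.1 at time 72 of clone c8, below the others at 113.1 to 138.7. NUMB d read 10.4 at time 96 of clone c6, below the others at 14.0 to 15.5.

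The dim probe set c, annotated to NUMB and LOC101928143, lay above its own time 0 on each early and late array of clone c6 and below it on each of clone c8. The mean log2 changes were 0.43 and -0.37 early, a difference of 0.795, and 0.37 and -0.43 late, a difference of 0.793. Each of these values is taken from the time-0 arrays, which read 10.3 in c6 and 24.7 in c8. Late arrays read 13.0 to 25.5 in c6 and 10.9 to 16.7 in c8. These differences between the clones from their own time 0 were not tested. By limma, the clone difference in level was -0.016 ± 0.12 (adjusted p = 0.948), and in late minus early 0.0023 ± 0.25 (adjusted p = 0.998).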

How the results depend on the processing

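Of the calls, those of MAML2 late and over time, NRARP late and over time, and LFNG over time and late against early held without any single array, and both MFNG calls for clone level held in every alternative run. The 2 time-0 arrays carry the comparisons with start. Member probe sets called over time numbered 6, and 3 without the clone block, 2 (genes) with probe sets averaged by gene, and 3 to 7 with 1 array left out (3 without time 0 of c8). Early against start, 3 members became 1 (genes) with that mean, 0 with phase means, 0 in c6 alone and 0 in c8 alone, and 0 to 4 with 1 array left out (0 without time 0 of c6, 1 without time 0 of c8). Late against start, 5 members became 2 without the clone block, 1 in c6 alone, 0 in c8 alone, and 2 to 5 with 1 array left out (2 without time 0 of c8). Late against early, 1 member became 0 in c8 alone and 1 to 4 with 1 array left out (2 without time 8 or 12 of c6 or time 72 of c8, 4 without time 12 of c8). The response count was 0 and the level count 1 to 3 throughout. Causes were not tested.

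Over all features, change over time called 1478, against 917 without the filter, 923 without the trend, 577 without the clone block and 945 and 971 without time 0 of c6 and c8. Early against start called 436, against 227, 204 and 95 for the first 3 of these, 140 with phase means, 14 and 41 in c6 and c8 alone, 66 and 83 without time 0 of c6 and c8, and 264 and 244 without time 4 and time 8 of c8. Late against start called 1556, against 806 without the clone block, 458 and 188 in c6 and c8 alone, and 634 and 599 without time 0 of c6 and c8. Late against early called 1100, against 309 in c8 alone and 1904 without time 12 of c8. With 1 value per gene, all features called numbered 904 (brightest probe set) and 599 (mean) over time, 275 and 212 early, 949 and 772 late, 708 and 549 late against early, and 2963 and 2420 for level, against 6252 probe sets.

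Signs changed only in results that were not called, in 62 of 521 alternative values of 45 results within 1 standard error of 0, and none of these was called. Early against start, median centring gave -0.018 for MAML1 (range without 1 array -0.00030 to 0.082), -0.035 for MAML2 b, -0.021 for RBPJ a, -0.021 for NUMB a and -0.028 for NUMB c. MAML2 b was -0.21 with a pseudocount of 1, -0.027 after quantile normalization and -0.071 in c8 alone, and -0.22 to 0.27 without 1 array. RBPJ a was -0.038 as a mean of probe sets, -0.0035 in c8 alone and -0.043 to 0.12 without 1 array. NUMB c was -0.031 after quantile normalization, -0.37 in c8 alone and -0.34 to 0.40 without 1 array. NUMB a was -0.076 to 0.15 without 1 array. With 1 clone alone, MAML3 a was -0.13 (c6), MAML3 b 0.036 (c8; -0.25 to 0.11 without 1 array), RBPJ c 0.0047 (c6), NUMB b 0.11 (c8; -0.38 to 0.023) and NUMB d -0.019 (c6). Late against start, 1 clone alone gave MAML3 b -0.15 (c8; -0.048 to 0.25 without 1 array), RBPJ c 0.015 (c6; -0.11 to 0.020), NUMB b 0.027 (c8; -0.34 to 0.064), NUMB a -0.017 (c8) and NUMB c 0.37 (c6; -0.40 to 0.34). Late against early, it gave MAML3 b -0.18 (c8), NUMB b -0.082 (c8; -0.035 to 0.12), NUMB a -0.029 (c8) and NUMB d 0.032 (c6; -0.088 to 0.031), and RBPJ c ranged from -0.0069 to 0.11 without 1 array. For the clone difference in response, quantile normalization gave NRARP 0.0071 (-0.33 to 0.20 without 1 array), RFNG 0.033 (-0.15 to 0.078) and NUMB c -0.051 (-0.11 to 0.15), the last also -0.048 with median centring and -0.0012 with a pseudocount of 64. Without 1 array it ranged from -0.014 to 0.13 for MAML1, -0.23 to 0.0078 for RBPJ b, -0.038 to 0.21 for RBPJ c, -0.0055 to 0.30 for LFNG and -0.087 to 0.42 for MFNG a. For clone level, median centring gave NRARP 0.0012 (-0.10 to 0.040), a pseudocount of 64 gave DTX1 -0.0019 (-0.089 to 0.11), a pseudocount of 1 gave MAML2 b 0.012 (-0.15 to 0.054), and the ranges without 1 array were -0.068 to 0.0070 for RBPJ c, -0.056 to 0.077 for NUMB d and -0.11 to 0.031 for NUMB c.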
